A study of Macaca mulatta with 4 samples.

Results

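The genes described here move salt and water across the outer cells of the embryo when the blastocyst cavity fills. They were chosen by symbol: 3 aquaporins (AQP3, AQP9 and AQP11), 3 beta subunits of the sodium pump (ATP1B1, ATP1B2 and ATP1B3) and FXYD3, a small regulator of the pump. Of these 7 genes, 6 had an Ensembl macaque identifier among the 21314 genes of the count table, and ATP1B3 is not analysed here. The 6 identifiers were matched by gene ID, and each symbol had 1 identifier in the table.

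The libraries were made from rhesus macaque (Macaca mulatta) morulae, which precede the cavity. GG embryos are gynogenetic, with a nuclear genome from the mother alone, and AG embryos are androgenetic, with a nuclear genome from the father alone. There were 2 libraries of GG morulae and 2 of AG morulae, and no biparental embryos enter the comparison. The labels name no further treatment of either group. They leave unclear how many embryos went into each library and whether replicates came from separate animals. The p-values therefore measure the spread between these libraries, which may be partly technical.

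Cavitation begins when the outer cells of the morula become an epithelium. The sodium pump, a complex of a catalytic alpha subunit and a beta subunit that carries it to the membrane, exports sodium at the basolateral side, and water follows through aquaporins and between cells. Tight junctions hold the fluid in, and FXYD proteins tune the pump's affinity for ions. In the mouse, loss of the beta 1 subunit stops the cavity from forming, and aquaporins 3 and 9 lie in the membranes of trophectoderm, the outer lineage.

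Total estimated counts were 21335844 and 29733897 in GG replicates 1 and 2, and 14129529 and 19108657 in AG replicates 1 and 2. Replicates resembled each other across tested genes, with a Spearman correlation of 0.968 within GG and of 0.931 within AG. GG replicates 1 and 2 reached 0.858 and 0.850 with AG replicate 2, but 0.821 and 0.803 with AG replicate 1. AG replicate 1 thus stood farthest from the rest. Markers of pluripotent cells of the early embryo were present in every library. POU5F1 stood at 465 and 479 CPM in GG and 181 and 389 CPM in AG, NANOG at 129 and 141 CPM in GG and 151 and 25 CPM in AG, and DPPA4 at 15.8 and 12.2 CPM in GG and 62.8 and 47.9 CPM in AG. DPPA4 fell in GG (log2 fold change -1.98, adjusted p = 0.0281). CPM are counts scaled to the total of tested genes, adjusted between libraries by the trimmed mean of M-values (TMM). Of 13227 genes tested, 1709 (12.9%) passed an adjusted p under 0.05 in edgeR's quasi-likelihood test: 839 (6.34%) rose in GG and 870 (6.58%) fell. Without GG replicate 1 or GG replicate 2, which leaves the AG pair to set the spread, the count was 119 and 84.

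Of the 5 tested cavitation genes, FXYD3 passed the test. It was expressed in both GG libraries and nearly silent in both AG libraries. AQP3 was high in 1 AG library and lay within a narrow range in the other 3 libraries. AQP11 and ATP1B1 had higher mean levels in GG but did not pass the test, ATP1B2 did not separate the groups, and AQP9 had no reads. In total 1 of 5 tested genes was called, beside the 12.9% of all tested genes. The count is not evidence about the genes as a group, because FXYD3 passed the filter on low counts through its GG libraries alone. In bulk RNA, fewer cells of a type and less RNA per cell cannot be told apart.

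**Figure D1:**
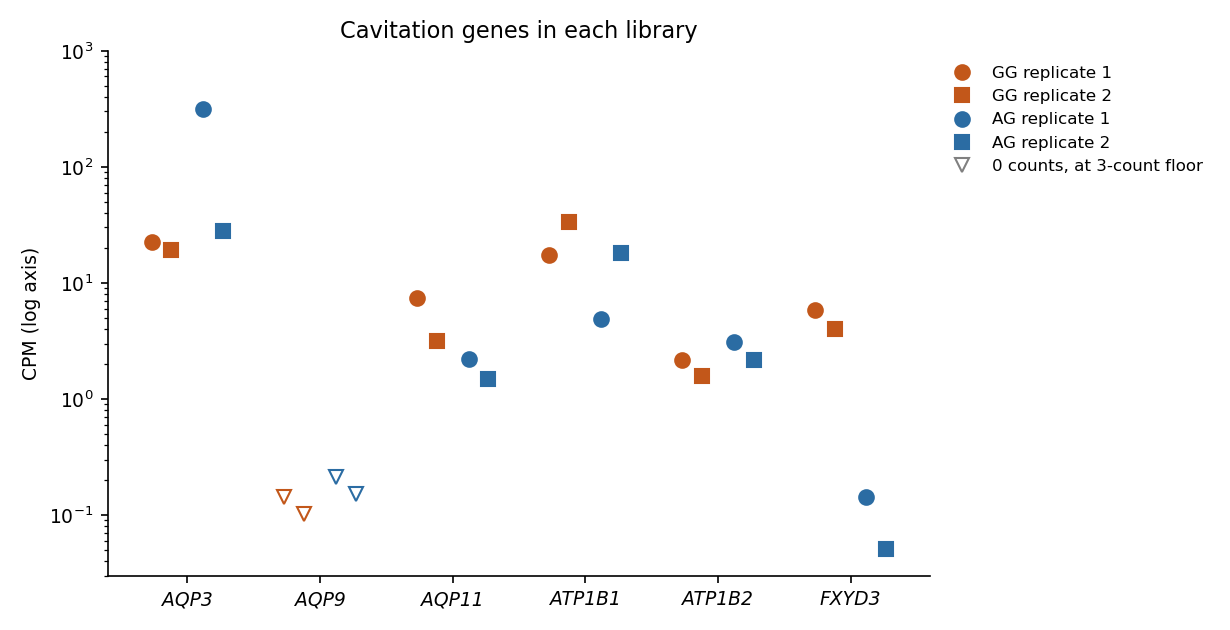
Level of 6 cavitation genes in each library, in CPM on a log axis; circles are replicate 1, squares are replicate 2, and open triangles mark 0 counts, drawn at the level of 3 counts. FXYD3 is separated between GG and AG, while the AQP3 value of AG replicate 1 (315 CPM) stands above 3 libraries at 19.2 to 28.0 CPM.

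AQP3 (ENSMMUG00000003314) encodes an aquaglyceroporin, a channel for water and glycerol. It had 470 and 564 counts in GG replicates 1 and 2, against 4426 and 552 counts in AG replicates 1 and 2. On the CPM scale these were 22.3 and 19.2 in GG and 315 and 28.0 in AG. Both AG libraries lay above both GG libraries, as was so in either direction for 64.1% of tested genes, but AG replicate 2 lay close to GG. The AG libraries differed 11.2-fold from each other, and 5.44% of tested genes had a larger gap between them.

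The fitted change of AQP3 was therefore imprecise. The log2 fold change of GG minus AG was -3.05 ± 1.05 (SE; 95% interval -5.65 to -0.44) and did not pass (adjusted p = 0.112). Without AG replicate 1 it was -0.44 (adjusted p = 0.404). Without AG replicate 2, when AG replicate 1 alone stood for the group and was assumed to vary like the GG pair, it was -3.95 (adjusted p = 0.000912). The direction was the same in every fit, and the size depended on which AG library was kept.

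FXYD5 and some blood cell markers were likewise highest in AG replicate 1, and other blood markers were not. FXYD5, a pump regulator of the same family as FXYD3, had 58 and 53 counts in GG and 425 and 76 counts in AG, or 2.75 and 1.81 CPM in GG and 30.3 and 3.86 CPM in AG. Its log2 fold change was -2.90 (95% interval -5.39 to -0.42, adjusted p = 0.112), and -0.77 without AG replicate 1 (0.469). FXYD5 passed without AG replicate 2 (-3.76, adjusted p = 0.00401), with no filter (0.0328) and by DESeq2 (0.00779). Of the blood cell markers, the monocyte gene CD14 had 52 and 86 counts in GG against 136 and 12 counts in AG. LYZ, a gene of monocytes and neutrophils, went the other way, with 113 and 288 counts in GG and 6 and 25 counts in AG, and the B cell gene CD79A was highest in AG replicate 2, with 3 and 0 counts in GG and 53 and 119 in AG. The summed level of the 7 blood markers in the table was 14.9 and 19.1 CPM in GG and 158 and 74.3 CPM in AG. Most of the AG sum was PTPRC, a white cell surface gene, at 141 and 65.9 CPM. The T cell gene CD3E had 1 count in AG replicate 2 and 0 in the other 3 libraries, and ALAS2, of red cell precursors, had 0 in both AG libraries and in GG replicate 1, and 45 counts in GG replicate 2. The part of other cells in the AQP3 value was not tested.

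AQP9 (ENSMMUG00000011225), an aquaglyceroporin found at the apical membrane of mouse trophectoderm, had 0 counts in all 4 libraries. A count of 0 allows up to 3 counts, which corresponds to 0.142 and 0.102 CPM in GG and 0.214 and 0.152 CPM in AG. These limits cover counting error only, since reads without molecular identifiers are not independent molecules. AQP9 was not detectable at this depth in either group.

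AQP11 (ENSMMUG00000018944) encodes an unusual aquaporin of intracellular membranes. It had 157 and 93 counts in GG and 31 and 29 counts in AG, or 7.46 and 3.17 CPM in GG and 2.21 and 1.47 CPM in AG. Both GG libraries lay above both AG libraries, and the GG libraries differed 2.35-fold from each other. The log2 fold change was 1.53 ± 0.68 (95% interval -0.17 to 3.23) and did not pass (adjusted p = 0.190). Its value stayed positive with any 1 library left out, from 0.80 without GG replicate 1 to 1.99 without GG replicate 2, and was not called in any of these fits. The RefSeq annotation has a further gene model overlapping AQP11, and the strand setting of the counts is not given in the sources used here, so reads of the pair could not be separated.

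**Figure D2:**
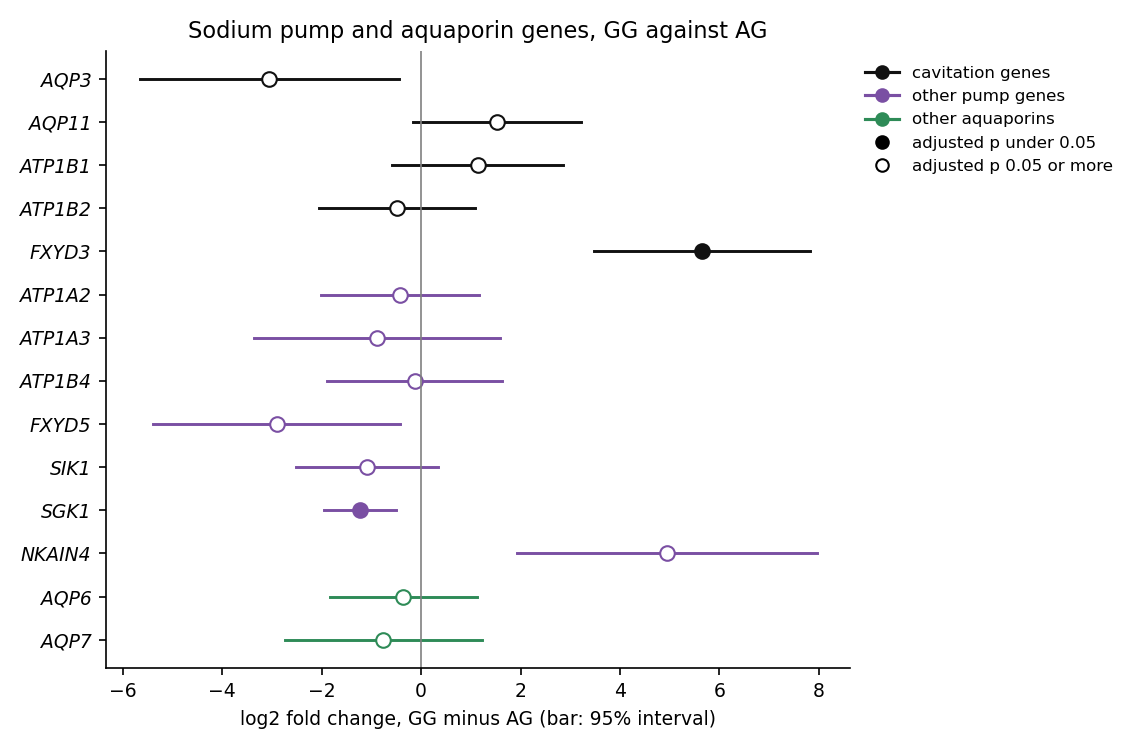
Log2 fold change of GG minus AG (points) with its 95% interval (bars) for the tested cavitation genes, 7 other sodium pump genes and the other aquaporins; filled points passed an adjusted p under 0.05. FXYD3 at 5.65 and SGK1 at -1.22 are the filled points, and AQP3 and FXYD5 have wide intervals below 0.

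The beta subunits showed no change that passed the test. ATP1B1 (ENSMMUG00000021078), the beta subunit most widely used by epithelia, had 369 and 980 counts in GG and 69 and 357 counts in AG. On the CPM scale it stood at 17.5 and 33.4 in GG and at 4.92 and 18.1 in AG. The groups overlapped, since AG replicate 2 lay just above GG replicate 1, and AG replicate 1 was the low library. The AG libraries differed 3.69-fold and the GG libraries 1.91-fold.

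For ATP1B1 the log2 fold change was 1.14 ± 0.70 (95% interval -0.58 to 2.86, adjusted p = 0.316). It was 0.48 without AG replicate 1 (adjusted p = 0.537) and 2.36 without AG replicate 2, where it passed (adjusted p = 0.0301). It was 1.53 without GG replicate 1 and 0.58 without GG replicate 2, so libraries of both groups moved the ATP1B1 value. AG replicate 1 held the highest AQP3 level and the lowest ATP1B1 level of the 4 libraries.

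ATP1B2 (ENSMMUG00000044486), known as an adhesion molecule of glia as well as a pump subunit, had 46 counts in each GG library and 43 in each AG library after rounding. Its levels were 2.18 and 1.57 CPM in GG and 3.06 and 2.18 CPM in AG, and the groups overlapped. The log2 fold change was -0.48 ± 0.63 (95% interval -2.04 to 1.08, adjusted p = 0.644), an interval that leaves room for a 4-fold difference toward AG. All 4 of its deposited values had decimals before rounding, whereas all 4 values of each of AQP3, AQP11, ATP1B1 and FXYD3 were exactly whole as deposited.

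A ratio of 2 genes within a library does not depend on the scaling between libraries. There were 8.02 and 21.3 ATP1B1 reads for each ATP1B2 read in the GG libraries, and 1.60 and 8.30 in the AG libraries. On the log2 scale the mean was 3.71 in GG and 1.87 in AG, a difference of 1.84, with AG replicate 2 above GG replicate 1. With 2 libraries a group, an exact two-sided permutation test cannot go below p = 0.333, so no test of this ratio was made.

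FXYD3 (ENSMMUG00000022127) encodes a single-span membrane protein that binds the pump and changes its ion affinity. It had 122 and 117 counts in GG replicates 1 and 2, against 2 and 1 counts in AG replicates 1 and 2. Levels were 5.79 and 3.99 CPM in GG and 0.142 and 0.0508 CPM in AG, so the groups were far apart and the GG libraries agreed within 1.45-fold.

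With 3 counts in AG as a group, the ratio of GG to AG for FXYD3 was 53.3 (exact 95% counting interval 18.0 to 260). The fitted log2 fold change was 5.65 ± 0.87 (SE; 95% interval 3.48 to 7.81, adjusted p = 0.0221). The call held without AG replicate 1 (adjusted p = 0.0164) and without AG replicate 2 (0.0148). It was lost without GG replicate 1 (log2 fold change 5.35, adjusted p = 0.141) and without GG replicate 2 (5.84, 0.115).

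**Figure D3:**
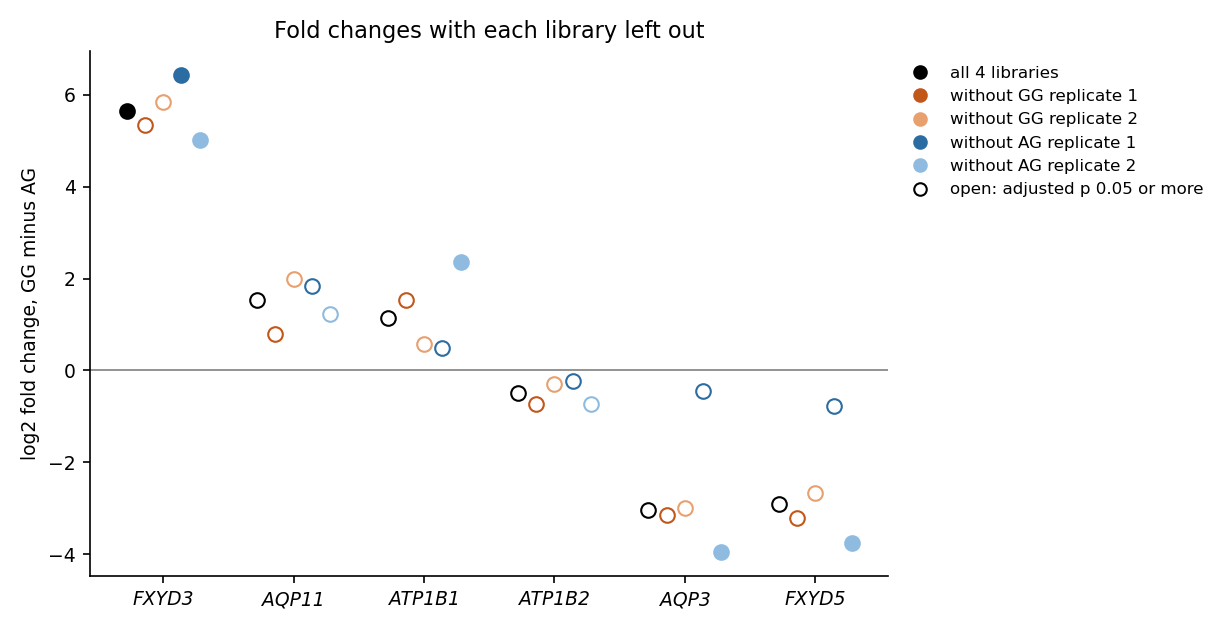
Log2 fold change of GG minus AG for the 5 tested cavitation genes and FXYD5 with all 4 libraries and with each library left out; filled points passed an adjusted p under 0.05. FXYD3 lies between 5.02 and 6.44 in every fit, whereas AQP3 lies at -0.44 without AG replicate 1 and at -3.95 without AG replicate 2.

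The tested genes nearest to FXYD3 in pattern were FYB1, an adaptor of immune cell signalling, and ARRDC3, an arrestin-domain protein. Likeness was the distance between log2 CPM centred on each gene's mean over the 4 libraries, 0.274 for FYB1 and 0.344 for ARRDC3. FYB1 had 179 and 170 counts in GG and 3 and 3 in AG, and ARRDC3 had 283 and 283 in GG and 9 and 5 in AG. They were chosen for this likeness, so their difference between the groups is a description, and 4 libraries are too few to set one such gene above another.

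By the RefSeq gene table of assembly T2T-MMU8v2.0, used for names and order only, the 7 cavitation genes lie on 7 different chromosomes. The closest analysed neighbours of FXYD3 on chromosome 19 were HPN, a serine protease gene, and LGI4, a gene of glial signalling. HPN had 13 and 20 counts in GG and 7 and 4 in AG and was not called (log2 fold change 0.91, adjusted p = 0.527), and LGI4 had 0 counts throughout. AQP3 neighbours another aquaporin gene, AQP7, on chromosome 15. AQP7 had 0.475 and 0.546 CPM in GG and 1.14 and 0.609 CPM in AG, highest in AG replicate 1 as AQP3 was, with a 1.87-fold gap between the AG libraries. These levels rest on 10 to 16 counts a library. Near copies of AQP7 exist in primates, so its counts are uncertain.

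The rest of the pump was measured through 17 other genes of subunits, FXYD proteins and regulators. Of these, 13 were in the table and 8 were tested. In GG, 1 fell, 0 rose and 7 did not pass the test in edgeR, 12.5% called beside 12.9% of all tested genes; 1 was higher and 2 were lower in GG at an unadjusted p under 0.05, and as many by DESeq2. The 1 higher gene was NKAIN4, which had under 10 counts in each AG library and passed the filter through GG alone. NKAIN4 could therefore be called higher in GG only. The log2 fold changes of the 8 tested pump genes had a median of -0.65, beside 0.04 over all tested genes. SGK1, a kinase that raises sodium transport in epithelia, had 186 and 202 CPM in GG and 553 and 353 CPM in AG. SGK1 was lower in GG at -1.22 ± 0.29 on the log2 scale (adjusted p = 0.0499), a call that ended with DESeq2 size factors (0.0538), upper-quartile normalization (0.0535) and the replicate block (0.0570), and without either GG library (0.275 to 0.303).

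SIK1, a kinase that acts on the pump, was not called, at -1.09 ± 0.58 (adjusted p = 0.251). NKAIN4, which encodes a protein that interacts with the pump and was chosen after its values were seen, had 49 and 143 counts in GG and 0 and 4 in AG (log2 fold change 4.94 ± 1.21, adjusted p = 0.0529). NKAIN4 passed without AG replicate 2 (adjusted p = 0.0169), in the fit with the replicate block (0.0445), with no filter (0.0141) and by DESeq2 (0.00173).

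Of 10 other aquaporin genes, 7 were in the table and 2 were tested, AQP6 and AQP7. Neither was called in edgeR, at an unadjusted p under 0.05 or with DESeq2. AQP6, an intracellular channel, had a log2 fold change of -0.36 ± 0.60 (adjusted p = 0.723) and AQP7 of -0.76 ± 0.80 (0.563). AQP8, found in mouse trophectoderm, had 0 counts in both GG libraries and 0 and 1 counts in AG. No per-length level was available, so the aquaporin genes are not ranked against each other.

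Ion channels and carriers of epithelial fluid transport were called in both directions. Of 28 listed carriers and channels, 27 were in the table and 19 were tested. In GG, 2 rose, 2 fell and 15 did not pass the test, 21.1% called beside 12.9% of all tested genes, with a median log2 fold change of 0.65. At an unadjusted p under 0.05, 5 were higher and 3 lower in GG, and by DESeq2 3 and 3. SLC12A7, SCNN1G, SLC9A3 and KCNN4 had under 10 counts in each AG library and passed the filter through GG alone. These 4 could be called in that direction only, and all 4 are among the 5 higher at an unadjusted p under 0.05. SCNN1A, the alpha subunit of the epithelial sodium channel, had 558 and 1437 counts in GG and 2 and 12 counts in AG. SCNN1A is the remaining gene of those 5. The filter asks for 2 libraries, and AG replicate 1 fell short of it. SCNN1A therefore also needed its GG libraries to pass and could be called higher in GG only. Its level was 26.5 and 49.0 CPM in GG and 0.142 and 0.609 CPM in AG, with groups far apart. It rose in GG by 6.56 ± 0.77 on the log2 scale (adjusted p = 0.0133), and the call was lost without GG replicate 2 (0.0678).

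The other sodium channel subunits were chosen after their values were seen. SCNN1G, the gamma subunit, had 31 and 105 counts in GG and 2 and 6 in AG (log2 fold change 3.43 ± 0.91, adjusted p = 0.0629). SCNN1G passed without a filter (adjusted p = 0.0427), after thinning (0.0437) and with DESeq2 (0.0246). SCNN1B, the beta subunit, had 117 and 134 counts in GG and 75 and 60 in AG, and its log2 fold change was 0.27 ± 0.56 (95% interval -1.11 to 1.66, adjusted p = 0.778).

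Among the chloride cotransporters, SLC12A7, a potassium and chloride exporter, had 43 and 59 counts in GG and 0 in both AG libraries. Set against 3 counts over the AG group, the level of SLC12A7 in GG was at least 22.8-fold higher (adjusted p = 0.0316). SLC12A2, which brings sodium, potassium and chloride into the cell, went the other way, with 1.38 and 1.91 CPM in GG and 13.7 and 8.99 CPM in AG (log2 fold change -2.78 ± 0.55, adjusted p = 0.0342). SLC4A7, a sodium bicarbonate carrier, stood at 5.79 and 5.80 CPM in GG and 26.2 and 33.6 CPM in AG (-2.37 ± 0.37, adjusted p = 0.0234). The calls of SLC12A7, SLC12A2 and SLC4A7 held without either AG library and were lost without either GG library (adjusted p = 0.183 to 0.221).

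SLC9A3, the apical sodium and proton exchanger of absorptive epithelia, was also chosen after its values were seen and did not pass. It had 74 and 51 counts in GG and 6 and 7 in AG (log2 fold change 2.73 ± 0.79, adjusted p = 0.0749). The uncalled members with the highest mean level were NHERF1, a scaffold of membrane carriers, CLIC1, an intracellular chloride channel protein, and CLCN3, a chloride exchanger of endosomes, with log2 fold changes of 0.50 ± 0.29, 1.57 ± 0.81 and 0.53 ± 0.40. CLIC1 had 99.5 and 16.5 CPM in AG replicates 1 and 2, and passed without AG replicate 1 (3.37, adjusted p = 0.00803).

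**Figure D4:**
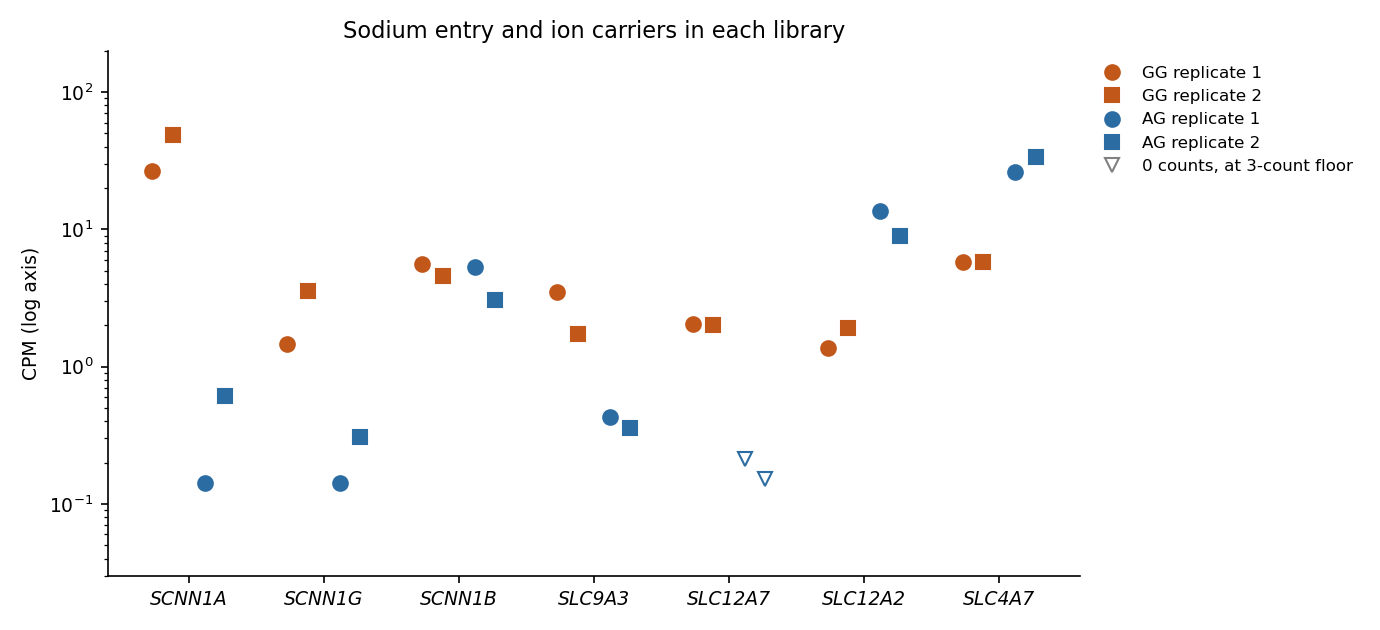
Level of 7 ion channel and carrier genes in each library, in CPM on a log axis; circles are replicate 1, squares are replicate 2, and open triangles mark 0 counts, drawn at the level of 3 counts. SCNN1A and SLC12A7 are higher in both GG libraries, SLC12A2 and SLC4A7 are higher in both AG libraries, and SCNN1B overlaps.

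Genes of the epithelial seal that retains the fluid included 7 that rose in GG. Of 18 listed junction and polarity genes, 16 were in the table and 15 were tested. In GG, 7 rose, 0 fell and 8 did not pass the test in edgeR, 46.7% called beside 12.9% of all tested genes; 9 were higher and 1 was lower in GG at an unadjusted p under 0.05, and as many by DESeq2. CLDN3, CLDN4 and CLDN7 had under 10 counts in each AG library and passed the filter through GG alone, so these 3 could be called in that direction only. The median log2 fold change of the tested seal genes was 1.24, also with CLDN7 at its bound, beside 0.04 over all tested genes. The claudin gene CLDN7 had 80 and 81 counts in GG and 0 in both AG libraries, at least 35.9-fold higher in GG (adjusted p = 0.0263). CLDN3, a related claudin, had 147 and 755 counts in GG and 7 and 0 in AG (log2 fold change 6.14 ± 1.42, adjusted p = 0.0470), a call that ended under the replicate block (0.0569).

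The adhesion and scaffold genes of the seal had smaller changes. CDH1, which encodes E-cadherin of compaction, had 1044 and 1985 counts in GG and 168 and 298 counts in AG (log2 fold change 2.11 ± 0.35, adjusted p = 0.0261). EZR, for the apical linker ezrin, had 594 and 420 CPM in GG and 54.5 and 115 CPM in AG (2.58 ± 0.43, adjusted p = 0.0261). F11R, a junctional adhesion molecule, had 150 and 129 CPM in GG and 57.8 and 57.4 CPM in AG (1.28 ± 0.26, adjusted p = 0.0372). TJP1, the junction scaffold ZO-1, had 130 and 97.0 CPM in GG and 50.8 and 45.3 CPM in AG. Its log2 fold change was 1.24 ± 0.30 (adjusted p = 0.0497), and its call ended with DESeq2 size factors (0.0530), upper-quartile normalization (0.0520) and the replicate block (0.0555). The seventh called gene was CLDN4 (8.58 ± 0.68, adjusted p = 0.00610), and it alone of the 7 was still called without GG replicate 1 or GG replicate 2. OCLN, CTNNB1 and PATJ, the uncalled members with the highest mean level, had log2 fold changes of -0.50 ± 0.37, 0.28 ± 0.25 and 2.20 ± 0.56. PATJ did not pass in the main fit (adjusted p = 0.0566). It passed with no filter (0.00950), a minimum mean of 10 CPM (0.0415), the replicate block (0.0349), thinning (0.0484) and DESeq2 (0.000614). With 1 library left out, its log2 fold change ran from 1.59 without AG replicate 1 to 3.23 without AG replicate 2.

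Of 11 tested markers of trophectoderm, the lineage in which the cavity's pump and seal form, 6 rose in GG and 0 fell, 54.5% called beside 12.9% of all tested genes, with a median log2 fold change of 3.24. GATA2, GCM1 and S100P, among the 6, had under 10 counts in each AG library and passed the filter through GG alone. At an unadjusted p under 0.05, and by DESeq2, 6 were higher and 2 lower in GG. The 2 lower were TFAP2C (log2 fold change -0.96 ± 0.28, adjusted p = 0.0779 in edgeR) and DAB2 (-1.73 ± 0.56, adjusted p = 0.0960). Of the 11 tested trophectoderm markers, 7 had a positive and 4 a negative log2 fold change. Without GG replicate 1 or GG replicate 2, 3 and 2 of these markers were called. Markers of other cells that a library could hold were also summed. Of 10 cumulus markers, 6 were in the table, summing to 15.2 and 40.2 CPM in GG and 6.55 and 16.3 CPM in AG. The largest part in each library was CYP11A1, with 275 and 858 counts in GG and 45 and 312 in AG. TNFAIP6 had 34 and 309 counts in GG and 36 and 2 in AG, and the receptor FSHR had 0 counts throughout. Of 8 sperm markers, 7 were in the table, summing to 35.3 and 49.95 CPM in GG and 89.5 and 51.2 CPM in AG. Nearly all of that was LDHC, and the packaging genes PRM2 and TNP2 had 0 counts. In AG replicates 1 and 2, TNP1 had 1 and 0 counts and AKAP4 had 6 and 1, and both had 0 in GG. Of the 2 tested cumulus and 2 tested sperm markers, 0 were called by edgeR or DESeq2 and 0 had an unadjusted p under 0.05. Of 5 tested blood markers, CD79A had under 10 counts in each GG library and passed the filter through AG alone. CD79A could therefore be called lower in GG only. LYZ had 6 counts in AG replicate 1, under the level the filter asks of 2 libraries. It needed its GG libraries to pass and could be called higher in GG only. Of the 5, PTPRC and CD79A fell in GG, 40.0% called beside 12.9% of all tested genes. Both calls were lost without GG replicate 1 or GG replicate 2 (adjusted p = 0.0754 to 0.151). LYZ was higher in GG at 3.13 on the log2 scale and did not pass (adjusted p = 0.0533), but passed by DESeq2 (0.00151), under the replicate block (0.0399), with no filter (0.0175) and without AG replicate 2 (0.0180). At an unadjusted p under 0.05, and by DESeq2, 1 blood marker was higher and 2 were lower in GG.

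**Figure D5:**
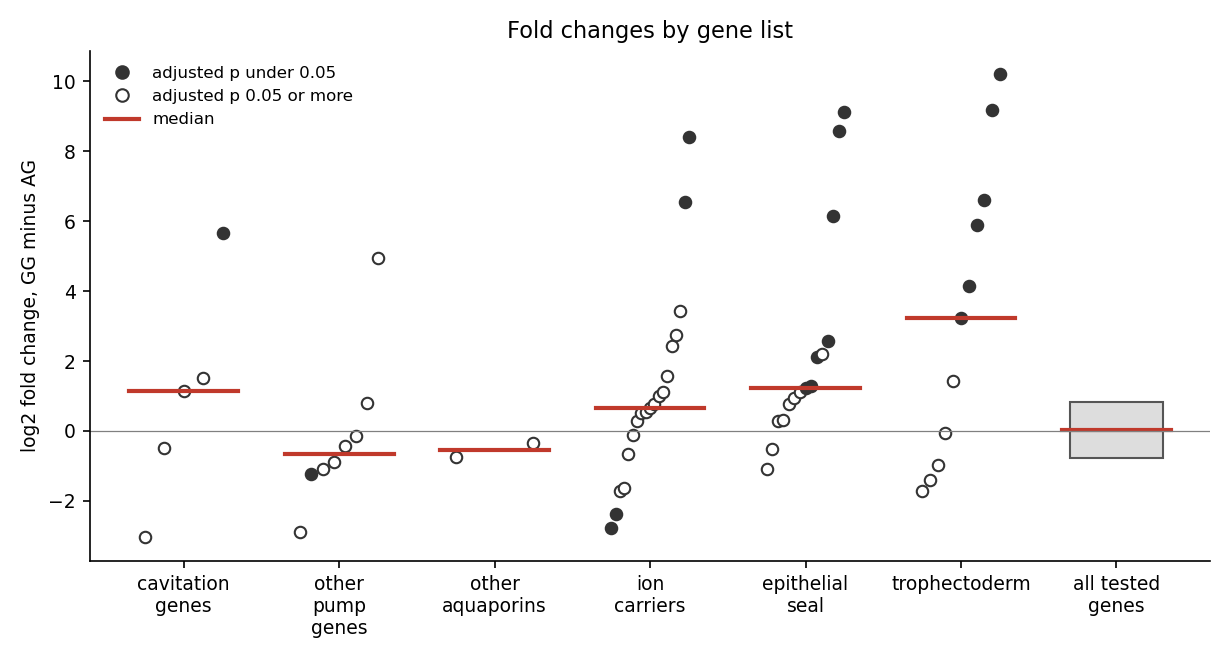
Log2 fold change of GG minus AG for each tested gene of 6 lists, with the list medians as red lines and, at the right, the quartile range of all tested genes as a grey box; filled points passed an adjusted p under 0.05. Called genes of the seal and trophectoderm lists lie above 0, 3 in each list with under 10 counts in each AG library, and fitted values of genes with 0 counts in AG (SLC12A7, CLDN7 and GATA2) depend on the prior count and are no measure of size.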

How the data were processed

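Expression was measured by RNA-seq of 2 GG and 2 AG libraries, with SMARTer cDNA amplification per the labels' protocols. The table as deposited by the authors holds estimated counts per Ensembl gene, unscaled, 30.0% to 32.2% of them not whole. Per the submitters' processing notes, the tools include Salmon 0.12.0, STAR 2.6.0c and Trim Galore, and the build is rheMac8; no source used here gives the annotation release, strand setting or filters. Symbols matched 14654 of 21314 genes (68.8%); with several identifiers, the one with most reads was used.

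Counts were rounded and tested with edgeR 4.0.16 in R 4.3.3 (filterByExpr, minimum count 10 and total 15; TMM; quasi-likelihood F test on group; Benjamini-Hochberg over 13227 genes). Standard errors follow from the F statistic. DESeq2 1.42.0 was an alternative. The code was checked on simulated counts. A fold against 0 counts uses 3 counts over the group; with 1 to 3 counts an exact 95% interval is given.

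The genes, the lists and the rule for named genes (all cavitation genes; called members of each list and up to 3 uncalled with the highest mean CPM; the 2 genes nearest each called cavitation gene) were chosen with earlier results of these data known. Lists have no test of their own. The planned ratio of ATP1B1 to ATP1B3 was replaced by the ratio to ATP1B2, chosen after the data were seen. Some genes of the lists are counted but not reported here by name.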

Additional observations from a re-analysis of the deposited data

How the results depend on the processing

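The number of genes called, 1709 of 13227, was 2609 with no low-count filter and 3327 with DESeq2, and ranged from 84 to 3786 with 1 library left out. Of the cavitation genes, 1 was called, against 2 without a filter and 2 with DESeq2 (FXYD3 and AQP3), 0 with a minimum mean of 10 CPM, where FXYD3 was not tested, and 0 to 3 with 1 library left out. Over the 5 related lists 18 genes were called, and 3 to 26 with 1 library left out, 5 without GG replicate 1 and 3 without GG replicate 2. The log2 difference in the ratio of ATP1B1 to ATP1B2 (1.84) was 0.65 without AG replicate 1 and 3.03 without AG replicate 2. No cavitation gene changed direction in any alternative. Reversed signs were seen for uncalled genes: HBA1 at 0.98 and CD14 at 2.13 without AG replicate 1, CD14 at 0.046 with the replicate block, and SCNN1B at -0.10 without AG replicate 2; the cause was not tested. With 1 library left out their ranges were -2.07 to 0.98 for HBA1, -1.86 to 2.13 for CD14 and -0.10 to 0.72 for SCNN1B. With the replicate number as a block, 1697 genes and 1 cavitation gene were called; same-numbered libraries deviated with a correlation of 0.0986 across genes, and the labels do not say that a number marks a shared origin, so the block is not a pairing. Scaling by other methods kept the median log2 fold change of all genes between 0.02 and 0.05. FXYD3 rests on 3 counts in AG, and AQP11 and ATP1B2 on at most 43 counts in an AG library.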
